A study of Homo sapiens with 4 samples.

Results

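BCL6 binding was mapped in SUDHL5, an established human diffuse large B-cell lymphoma line. Inside the body of a protein-coding gene, 511 regions held a called BCL6 peak in both replicates. A region was a set of peaks from the 2 BCL6 peak lists that shared at least 1 bp. It was kept when it held a peak of each list, lay on chromosomes 1 to 22 or X, and had its midpoint inside a protein-coding gene and more than 1 kb from every protein-coding gene end. The 511 were 39.0% (Wilson 95% interval 36.4 to 41.6) of the 1311 regions shared by both lists, and were drawn from 7371 merged regions in all. Of all bases up to the last gene end of each chromosome, 40.3% were gene body, so the share of regions was close to it. Of the other shared regions, 442 had their midpoint within 1 kb of a gene end and 358 lay between genes. The regions were chosen by the peak calls of these same 2 libraries and by peak position, so their presence in both lists and their distance from gene ends are not findings.

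The assay was CUT&RUN, in which an antibody tethers a nuclease to chromatin and the fragments it cuts free are sequenced. The series holds 4 libraries from SUDHL5 nuclei, with 2 biological replicates for a BCL6 antibody and 2 for normal rabbit IgG, and the labels name no drug, genotype or time for any of them. Values of the IgG pair are not analysed here. All values come from 1 cell line and 1 group of 2 replicates, which allows no test over samples, and every comparison below is a description.

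BCL6 is a transcriptional repressor with a BTB domain and zinc fingers that bind DNA. Germinal centre B cells need it, and many diffuse large B-cell lymphomas depend on it. Its BTB domain recruits co-repressors such as NCOR1 and BCOR, and histone deacetylases act through them. It is known for keeping B cells from becoming plasma cells by repressing PRDM1, and for dampening checkpoint and B cell receptor genes. A transcription factor can act from a promoter or from enhancers, and many enhancers of B cell genes lie in introns, so regions in gene bodies can belong to the host gene or to a neighbour.

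Some of these regions covered an annotated start of transcription, since a gene can have starts inside its own body and long non-coding RNAs (lncRNAs) can start within another gene. A table of RefSeq start windows (GRCh38.p14, 250 bases before to 50 after a start) held 101 windows that overlapped 72 of the 511 regions. Below are windows that lie wholly inside a region, 5′ to 3′ on the strand of the gene that starts there. The first 3 belong to the strongest such regions, and the other three to regions whose window held a match of TTCNNNGAA, the core of the DNA motif known for BCL6, which is in capitals:
SLC25A30-AS1 (chr13:45417912-45418211, plus strand, inside SLC25A30): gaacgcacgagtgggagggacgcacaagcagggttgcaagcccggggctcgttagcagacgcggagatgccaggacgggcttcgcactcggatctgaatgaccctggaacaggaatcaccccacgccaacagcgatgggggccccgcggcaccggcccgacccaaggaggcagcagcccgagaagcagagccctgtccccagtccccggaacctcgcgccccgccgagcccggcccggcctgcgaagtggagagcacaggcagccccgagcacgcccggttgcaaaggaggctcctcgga
ANXA2R-AS1 (chr5:43041884-43042183, plus strand, inside ANXA2R): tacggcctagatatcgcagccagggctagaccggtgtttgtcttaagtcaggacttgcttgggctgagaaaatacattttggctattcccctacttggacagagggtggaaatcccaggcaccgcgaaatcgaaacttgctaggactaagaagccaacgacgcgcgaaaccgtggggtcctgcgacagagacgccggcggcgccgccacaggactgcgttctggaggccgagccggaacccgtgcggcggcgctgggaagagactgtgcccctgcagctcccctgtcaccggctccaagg
PAN3 (chr13:28138295-28138594, plus strand, a start of the host gene itself): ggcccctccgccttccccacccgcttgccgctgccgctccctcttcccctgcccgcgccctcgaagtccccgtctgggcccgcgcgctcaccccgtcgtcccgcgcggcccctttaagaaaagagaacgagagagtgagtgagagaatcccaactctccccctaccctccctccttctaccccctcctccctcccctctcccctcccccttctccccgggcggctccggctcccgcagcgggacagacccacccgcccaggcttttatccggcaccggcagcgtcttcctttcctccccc
LOC124903388 (chr14:101810941-101811240, minus strand, inside PPP2R5C): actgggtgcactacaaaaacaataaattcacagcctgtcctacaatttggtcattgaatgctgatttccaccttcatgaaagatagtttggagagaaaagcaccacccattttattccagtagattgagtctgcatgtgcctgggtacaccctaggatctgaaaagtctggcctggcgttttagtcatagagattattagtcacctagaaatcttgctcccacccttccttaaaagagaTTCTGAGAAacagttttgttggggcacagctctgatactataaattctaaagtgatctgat
LOC124902130 (chr9:21993979-21994278, minus strand, inside CDKN2A): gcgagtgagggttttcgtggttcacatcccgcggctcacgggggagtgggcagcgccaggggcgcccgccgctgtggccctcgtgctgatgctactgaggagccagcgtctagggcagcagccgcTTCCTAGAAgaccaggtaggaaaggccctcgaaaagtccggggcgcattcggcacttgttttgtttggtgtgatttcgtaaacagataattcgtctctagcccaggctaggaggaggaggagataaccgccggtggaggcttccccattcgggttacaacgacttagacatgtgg
AFF1 (chr4:87007021-87007320, plus strand, a start of the host gene itself): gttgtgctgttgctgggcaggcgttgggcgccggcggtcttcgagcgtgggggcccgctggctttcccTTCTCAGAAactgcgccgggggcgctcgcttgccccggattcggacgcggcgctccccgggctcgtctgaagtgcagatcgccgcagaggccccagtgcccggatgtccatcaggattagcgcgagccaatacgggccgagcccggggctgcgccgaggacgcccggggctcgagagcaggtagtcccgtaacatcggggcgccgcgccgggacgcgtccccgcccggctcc

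Of the 3 windows with capitals, the one inside CDKN2A held TTCCTAGAA, the full motif as searched, and the others held TTCTGAGAA and TTCTCAGAA. Matches were sought on both strands, and every TTCCTAGAA is also a TTCCNNGAA and a TTCNNNGAA. Counting windows with at least 150 bases inside a region, TTCNNNGAA was found in 4 of 70 (5.71%, Wilson 95% interval 2.24 to 13.8), beside 7.65% of all 34789 RefSeq start windows. TTCCNNGAA was found in 2.86% beside 4.45%, and TTCCTAGAA in 1 window, 1.43% beside 0.371%. The octamer ATGCAAAT, which POU2F1 and POU2F2 bind, was in 3 of the 70 (4.29% beside 1.77%). GAGGAAGT, a site of the PU.1 type, was in 4 (5.71% beside 2.60%), and the ETS-type site CCGGAAGT was in 2 (2.86% beside 4.12%). For each of the 6 motifs the Wilson interval held the share of all windows. These counts cover only the annotated starts and say nothing of the regions away from them, whose sequence was not used here.

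Strength was read as the fold enrichment of a peak's summit over its local background, as the authors' peak caller gave it. The sources do not say whether that background came from an IgG library or from the BCL6 library itself, so a fold may be relative to either. Where a region held several peaks of a list, the highest fold was taken, and regions were ranked by the smaller of their 2 folds. The strongest lay in KIF13B, which encodes a kinesin motor, on chromosome 8 from 29228925 to 29230421, 33.7 kb from the nearer end. It reached a fold of 11.3 in replicate 1 and 13.3 in replicate 2. The summit pileup, the number of fragments over the summit, was 31 (exact Poisson 95% interval 21.1 to 44.0) and 33 (22.7 to 46.3), so even this region rested on few fragments. The next lay in ARID3A, an AT-rich DNA-binding factor first described at the immunoglobulin heavy-chain locus, with folds of 10.5 and 8.96 and pileups of 51 and 48. Its midpoint was 1.09 kb from a gene end, close to the limit of the rule. ARID3B, a relative of ARID3A, was the ninth by rank, with folds of 7.09 and 14.4, the highest replicate 2 value of all 511.

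The other strong regions lay in genes of many kinds. PEX14, a docking protein for import into peroxisomes, had folds of 8.02 and 9.90. SLC25A30, a mitochondrial carrier, had 9.94 and 7.89, and this region covered the start of the antisense lncRNA SLC25A30-AS1 shown above. UBXN8, a membrane protein of the endoplasmic reticulum, had 7.87 and 8.99. PLXNC1, a semaphorin receptor, had 8.03 and 7.21. IRF2, a factor of the interferon response, had 7.18 and 7.96, and CASP10, an initiator caspase of death receptor signalling, had 10.1 and 6.97. FNDC3A, a protein with fibronectin type III domains, had 7.33 and 7.41. The midpoint of its region lay 1.57 kb into the gene, within 1 kb of an annotated start.

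The remaining 5 of the strongest 15 lay in RBBP6 (7.82 and 6.91), MTUS1 (6.87 and 7.75), RNF157 (6.82 and 7.97), ANXA2R (6.66 and 9.97) and TIPIN (7.49 and 6.55). RBBP6 and RNF157 encode ubiquitin ligases, MTUS1 a microtubule-associated protein, and TIPIN a protein of the replication fork. Of the 15, 3 lay within 1 kb of a start in the table (FNDC3A, SLC25A30 and ANXA2R). The table held no window for the hosts of 9 of the 15, whose own starts could not be placed. In 4 cases the region was in a host gene that held another of the 511. The summit pileups of the 15 ran from 24 to 71 and the widths from 738 to 2935 bp, with a median of 1010 bp.

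**Figure D1:**
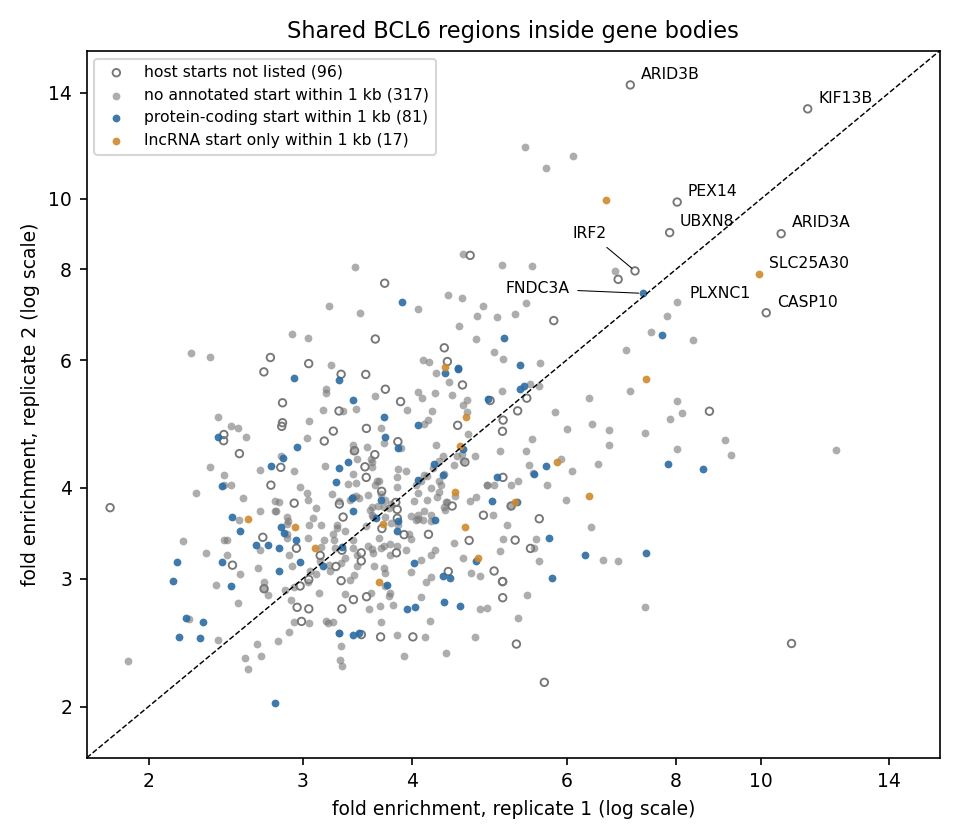
Each point is 1 of the 511 regions, with the authors' fold enrichment in replicate 1 on the x axis and in replicate 2 on the y axis, both on a log scale; the dashed line marks equal values, colours mark regions within 1 kb of an annotated start, open circles regions whose host has no start in the table, and the 10 strongest by the smaller fold are named. The middle 50% of values runs from 3.18 to 4.67 in replicate 1 and from 3.23 to 4.76 in replicate 2, KIF13B (11.3 and 13.3) stands highest in both together, and the scatter about the line is wide.

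At the weak end, NELL2 held the lowest region, with folds of 1.81 and 3.76, then SLC38A2 with 1.89 and 2.31 and KAT6B with 2.79 and 2.02. These were not the regions with the fewest fragments: the KAT6B region had pileups of 62 and 52, above those of KIF13B, over a higher local background. Across all 511 the median fold was 3.77 in replicate 1 (lowest 1.81, highest 12.2) and 3.84 in replicate 2 (2.02 to 14.4). The median of the smaller fold was 3.39, and it was at least 5 in 45 regions (8.81%) and under 3 in 159. Both peaks had a −log10 q of at least 5 in 158 regions (30.9%), while in 149 (29.2%) neither reached it.

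The replicates agreed loosely on strength. Over the 511 regions, Spearman's rho between replicates was 0.35 for the fold, 0.41 for −log10 q and 0.79 for the summit pileup. These are descriptions over regions that share their libraries. Replicate 1 had the higher fold in 249 regions (48.7%), so neither replicate was stronger throughout, but it had the wider peak in 322 (63.0%). The ratio of the folds exceeded 1.5 in 113 regions (22.1%) and 2 in 24. The widest gap was in RGS20, a regulator of G protein signalling, with 10.8 in replicate 1 and 2.44 in replicate 2. NCKAP5 went the other way (2.24 and 6.14), and ABR, a regulator of small GTPases, had 12.2 and 4.51. These 3 were named after their values were seen.

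Around the limit of 1 kb, folds inside and outside overlapped. The 3 regions just inside it lay in ZNF276 (1.002 kb from a gene end, folds 3.64 and 3.64), STIM2 (1.003 kb, 5.45 and 5.57) and SLC30A4 (1.003 kb, 4.74 and 6.90). The 3 just outside lay at NFKBIA (993 bp, 2.95 and 2.88), ELOVL6 (984 bp, 4.22 and 4.34) and NT5C2 (982 bp, 3.38 and 4.53).

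Beside the other shared regions, those in gene bodies had like folds, over fewer fragments than at gene ends. The median folds in replicates 1 and 2 were 3.77 and 3.84 in gene bodies, 3.50 and 3.78 at gene ends, and 3.85 and 3.96 between genes. The median summit pileups were 28 and 23 in gene bodies, 35 and 29.5 at gene ends, and 30 and 25 between genes. The median local background was 6.88 and 5.19 fragments in gene bodies, 9.15 and 7.39 at gene ends, and 6.88 and 5.64 between genes. The median −log10 q was 5.48 and 4.52 in gene bodies, 6.12 and 5.72 at gene ends, and 6.34 and 5.21 between genes. The middle 50% of values overlapped between the classes in each of these measures, and the part of fragment depth in their differences was not tested. Gene bodies held a larger share of the regions found in 1 list alone, with 47.1% of the 3885 seen in replicate 1 only (45.5 to 48.7) and 46.6% of the 2175 seen in replicate 2 only (44.5 to 48.7).

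**Figure D2:**
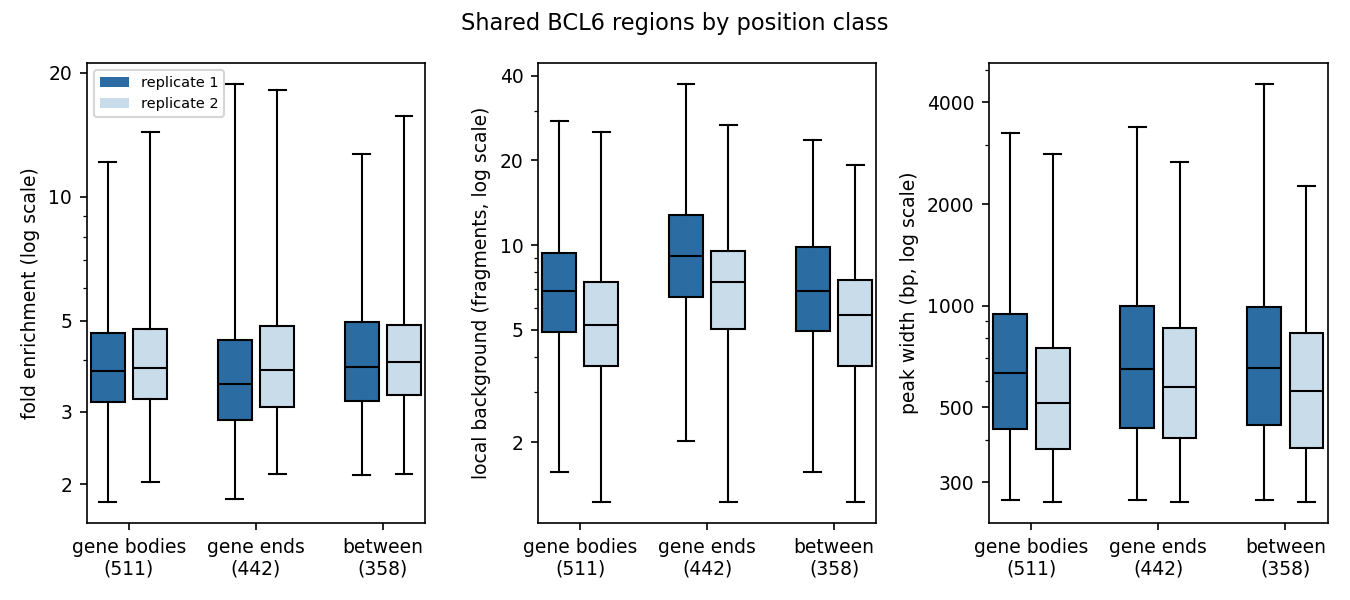
Fold enrichment, local background in fragments and peak width in bp (log axes) of shared regions in gene bodies, at gene ends and between genes, in replicate 1 and replicate 2; the line is the median, the box the middle 50% and the whiskers the lowest and highest value. Fold medians differ little between classes, while the background median in gene bodies (6.88 and 5.19) lies below that at gene ends (9.15 and 7.39).

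The median width of a region was 843 bp (middle 50% from 606 to 1180, range 303 to 3617), beside 848 bp at gene ends and 874.5 bp between genes. Taken per replicate, the median was 633 bp in replicate 1 and 515 bp in replicate 2. In 485 regions each list gave 1 peak, with a median width of 816 bp. In the other 26 a list gave several, and their median was 1851.5 bp. The widest region spanned 3617 bp across the 5′ end of SLCO3A1, a solute carrier, with its midpoint 1.45 kb inside the gene and folds of 5.30 and 5.91. It was followed by PRDM2 (3472 bp, 7.02 and 6.20), a relative of PRDM1 with a methyltransferase domain, ZEB2 (3254 bp, 3.16 and 5.12), EPN2 (3099 bp, 7.40 and 5.65) and ANXA2R (2935 bp). Strength and width went together only in part, with a Spearman's rho of 0.25 between the smaller fold and the width over the 511 regions. The summits of the replicates lay a median of 94 bp apart, and within 200 bp in 320 regions (62.6%).

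The 511 regions lay in 402 of 19974 protein-coding genes (2.01%), and 9 of them had 2 hosts. Hosts were long: their median length was 122 kb, beside 24.2 kb for all protein-coding genes, and they ran from 3.88 kb (ANXA2R) to 2220 kb (DMD). The rule itself favours long genes, since only they offer much sequence more than 1 kb from an end. Of genes under 10 kb, 0.283% were hosts, as were 0.820% of those from 10 to 30 kb, 2.03% from 30 to 100 kb, 6.32% from 100 to 300 kb and 8.69% above 300 kb. Per 10 Mb of gene body the order turned round, with 11.1 regions in genes under 10 kb, 5.69, 4.41 and 5.10 in the next classes and 2.68 in genes above 300 kb. The highest of these densities rests on 16 regions.

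Hosts also held many peaks seen in 1 list only. Such regions lay in the bodies of 242 of the 402 hosts (60.2%, 55.3 to 64.9), beside 6.60% of the other 19572 genes. The same held among genes of like length: from 100 to 300 kb the shares were 71.2% of 163 hosts and 17.0% of 2417 other genes, and above 300 kb 86.6% and 17.0%. Hosts with a known strand had a shared region at their own 5′ end in 34 of 327 cases (10.4%, 7.54 to 14.2), beside 2.65% of all 15812 stranded genes. At their own 3′ end it was 6 of 327 (1.83%, 0.844 to 3.94), beside 0.31%. These shares at gene ends were not matched for gene length.

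In 69 genes, 0.345% of all and 17.2% of hosts, there were 2 regions or more, and in 28 there were 3 or more. These 69 held 185 of the 511 regions. LPP and FOXP1 held the most, with 7 each. LPP encodes a LIM-domain protein of cell adhesion sites, and the gene lies on chromosome 3 beside BCL6. All 7 of its regions fell in the first 91.6 kb of its 738 kb. The strongest, 34.2 kb into the gene, had folds of 5.59 and 5.95, and the one nearest the 5′ end had 7.83 and 4.32. The lowest had 2.69 and 2.35. A further 11 regions of replicate 1 only and 9 of replicate 2 only lay in LPP, more than the 7 shared ones in each case.

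FOXP1, a forkhead factor of B cells and a known lymphoma gene, spread its 7 regions over 513 kb of 629 kb. Its strongest had folds of 4.06 and 4.10, with summits 9 bp apart. This region's midpoint lay 518 kb from the 5′ end of the gene as annotated, within 1 kb of an annotated start. The others ranged from 2.28 to 3.94 in the smaller fold, and none was among the 100 strongest. FOXP1 had 14 regions of replicate 1 only and 11 of replicate 2 only besides.

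PPP2R5C, LHFPL6 and AUTS2 held 5 each. PPP2R5C encodes a regulatory subunit of protein phosphatase 2A, and its strongest region (5.09 and 6.44) covered both an annotated start of the gene and that of LOC124903388, whose sequence is shown above. In LHFPL6, a tetraspan membrane protein, the 5 regions lay within 18.2 kb. The 2 strongest had folds of 5.08 and 4.96, and 4.59 and 4.34. AUTS2, known from neurodevelopment and from a Polycomb complex, held 5 regions across 226 kb of a gene of 1195 kb, the best with 6.70 and 4.59.

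Among genes with 3 or more regions LAPTM5 had the most for its length, with 4 in a gene of 25.3 kb, or 15.8 per 100 kb. LAPTM5 is a lysosomal protein of blood cells that lowers surface levels of the B cell receptor. From the 5′ end inward its folds were 3.72 and 3.77, 4.02 and 3.84, 4.06 and 3.94, and 4.46 and 3.36, so the 4 were of like strength in both replicates. Genes with 4 regions also were PTPRJ (a receptor tyrosine phosphatase, 3.12 to 5.11 in the smaller fold), PARD3 (cell polarity, 2.62 to 3.88), NPAS3 (a neuronal factor, 3.12 to 3.60), VAV3 (a guanine nucleotide exchange factor, 2.33 to 3.56), MARCHF1 (a ubiquitin ligase of MHC class II, 2.59 to 3.42) and IRAG2 (a protein of the endoplasmic reticulum in lymphoid cells, 2.32 to 2.76). The IRAG2 regions were weak in fold but not in pileup, which ran from 37 to 70 in replicate 1.

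Genes with 3 were PLEKHA2, MTSS1, CADPS, AFF1, BLK, PCED1B, ZNF608, TCF4, ST6GAL1, SPRED2, OSBPL10, TNFAIP8, NELL2, ZEB2, JMJD1C and CADM1. The best smaller fold among them was 5.80 in PLEKHA2 and the lowest 1.81 in NELL2. In JMJD1C, a histone demethylase family member, the midpoints of all 3 lay within 1.62 kb of each other. Such close sets were common, as 100 of the 511 (19.6%) had another of the 511 within 10 kb. Of genes with 2, the strongest regions were those in FNDC3A, PLXNC1, ARID3B and CASP10 given above, then LRRC2 (5.69 and 11.0) and the histone gene H2BC12 (5.58 and 5.52). The number of regions followed gene length weakly over the 402 hosts (Spearman's rho 0.22, across genes).

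**Figure D3:**
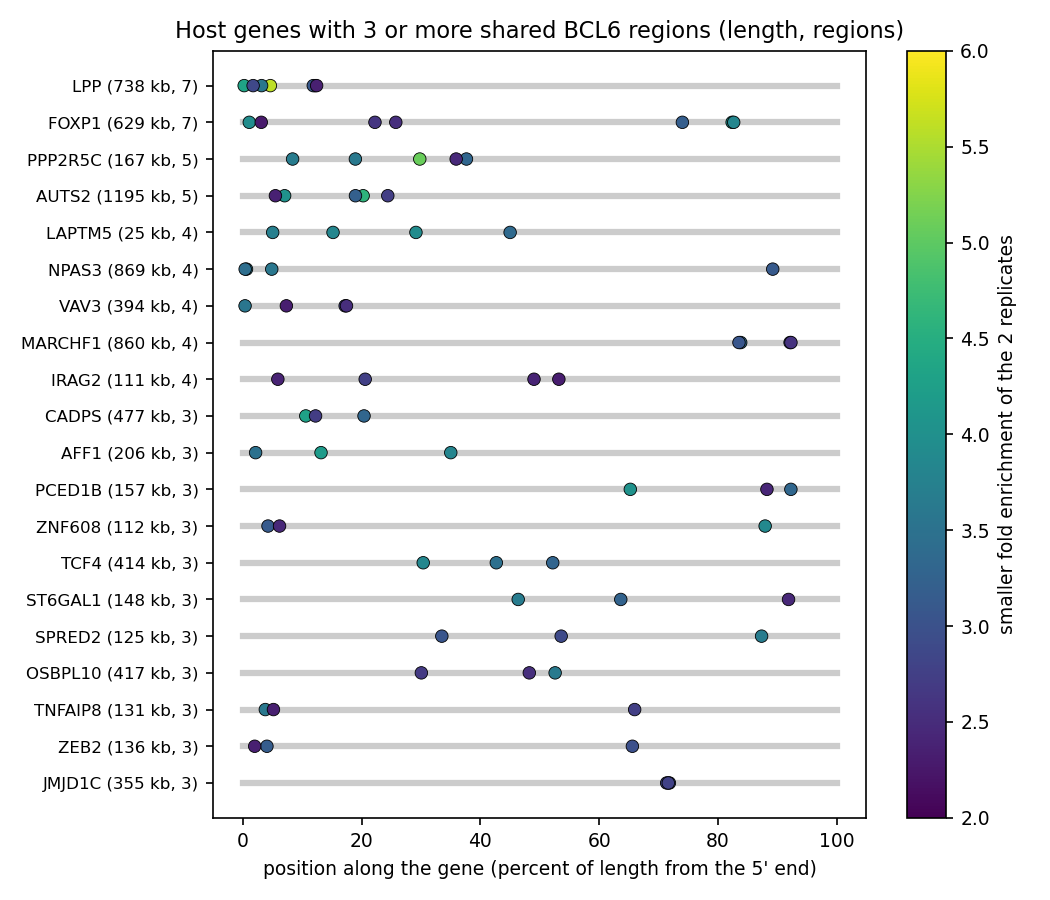
Host genes with 3 or more regions and a known strand, each drawn as a grey bar from its 5′ end (0) to its 3′ end (100 percent of length), with a point at the midpoint of each region coloured by the smaller fold enrichment. LPP has its 7 regions in the first part of the gene, FOXP1 spreads its 7 over 513 kb, and the 4 of MARCHF1 lie toward the 3′ end.

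Position along the gene was measured for the 411 regions whose host had a strand in the RefSeq start windows (327 genes). Regions lay toward the 5′ end. In the 5′ 50% of the host lay 278 (67.6%, Wilson 95% interval 63.0 to 72.0), beside 50.5% if each region were spread evenly over its own host's body. The 10% of length nearest the 5′ end held 109 (26.5%, even spread 8.79%), and the 10% nearest the 3′ end held 14 (3.41%, 8.38%). Over all 511, the central 50% of the host held 199 (38.9%, 34.8 to 43.2), beside 52.3%.

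In distance, 61 regions (14.8%) lay 1 to 2 kb from the 5′ end, where an even spread gives 2.33%, and 47 (11.4%) lay 2 to 5 kb from it, beside 6.02%. From 5 to 10 kb the 33 regions (8.03%) were close to the even spread of 7.16%. Beyond that regions were fewer than it gives, with 24.3% beside 31.6% from 10 to 50 kb, and 41.4% beside 52.9% above 50 kb. Within 5 kb of the 5′ end there were 108 (26.3%, 22.3 to 30.7; even spread 8.34%), and within 5 kb of the 3′ end 16 (3.89%, 2.41 to 6.23; 7.73%). The same lean was seen in regions of 1 list only. Of regions seen in replicate 1 only, 18.3% lay within 5 kb of the 5′ end (even spread 5.85%) and 3.08% within 5 kb of the 3′ end, and of those seen in replicate 2 only, 20.7% (6.65%) and 3.62%. The intervals at the 5′ end were 16.5 to 20.4 for replicate 1 only and 18.1 to 23.5 for replicate 2 only. The even spread differed between the sets too and was highest for shared regions (8.34%). No difference in lean between the sets is read from these shares.

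**Figure D4:**
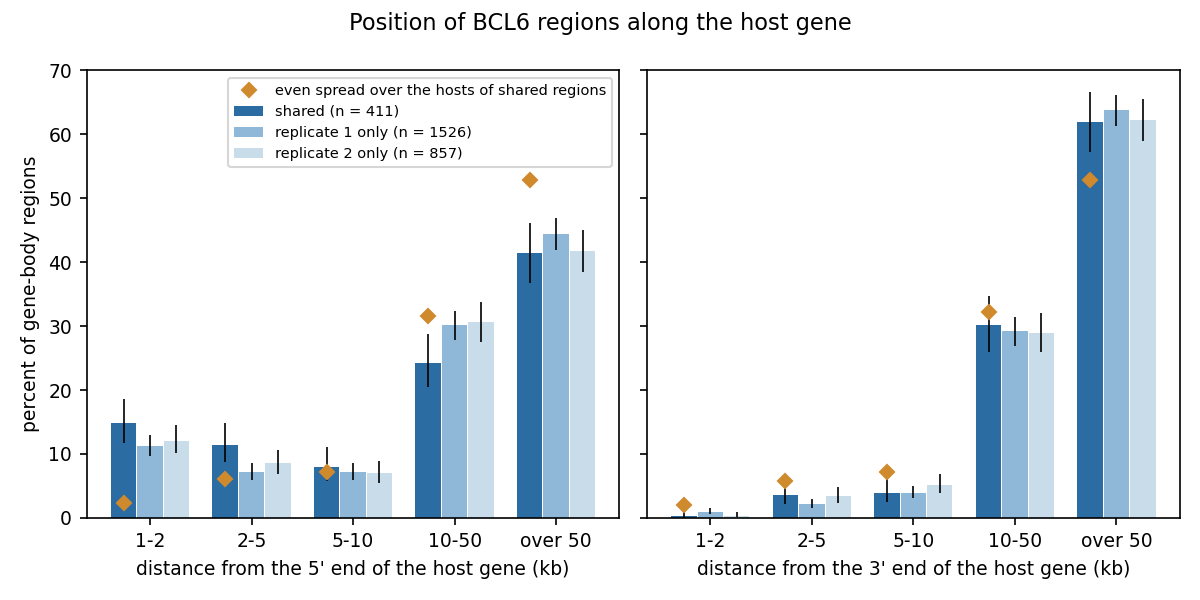
Percent of gene-body regions (y axis) by distance in kb from the 5′ end (left) and the 3′ end (right) of the host gene, for the 411 shared regions and for regions seen in 1 list only; lines are Wilson 95% intervals and diamonds the even spread over the hosts of shared regions. At 1 to 2 kb the shared bar reaches 14.8% at the 5′ end, beside a diamond at 2.33%, and 0.243% at the 3′ end.

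Some of these regions lay near annotated starts. Of the 411, 94 (22.9%, 19.1 to 27.2) lay within 1 kb of an annotated start, beside 3.82% for an even spread, and 81 of them were near a protein-coding start, each a start of the host itself. Among the 317 with no annotated start within 1 kb, 65 (20.5%, 16.4 to 25.3) still lay within 5 kb of the 5′ end and 12 (3.79%) within 5 kb of the 3′ end. Of all 511, a further 17 were near a lncRNA start alone. Some of these, such as those in SLC25A30 and MATN1, had a host without a start window. For them a protein-coding start of the host could not be placed. The median smaller fold was 3.25 for the 81 at protein-coding starts, 3.90 for the 17 at lncRNA starts and 3.40 for the 317 at none, and the median widths were 904, 1358 and 815 bp. The other 96 regions had no listed start nearby, but their hosts were without a start window, so they were in none of these groups. Pileup and background moved with these groups: the replicate 1 medians were 32 and 7.86 at protein-coding starts, 48 and 9.93 at lncRNA starts, and 27 and 6.80 at none. Their part in the folds and widths was not tested.

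Regions that overlapped a start window of their host included PAN3 (7.71 and 6.49), a subunit of a deadenylase, and EGR2 (5.30 and 5.48), a zinc-finger factor of antigen-receptor responses. Another was TET2 (4.51 and 5.85), an enzyme that oxidises methylcytosine. The PAN3 region began next to the 5′ end of the gene. These 3 were named after their values were seen. Among B cell factors, TCF4 and POU2F1 each had a region within 1 kb of a start of their own. The midpoints of these regions lay 126 and 108 kb from the 5′ end of the gene. The regions farthest from any gene end lay in RAD51B (415 kb, folds 3.10 and 3.75), in ANK2 (319 kb, 5.40 and 7.20, and 318 kb, 5.40 and 4.50), in AUTS2 (292 kb, 4.78 and 2.73) and in PARD3 (277 kb, 2.99 and 2.62). Strength showed no steady trend with distance from the 5′ end. The median smaller fold was 3.42 at 1 to 2 kb, 3.42 at 2 to 5 kb and 3.24 at 5 to 10 kb. It was highest at 10 to 50 kb (3.59) and was 3.30 above 50 kb. Width was largest next to the 5′ end, with a median of 1100 bp at 1 to 2 kb beside 775 to 838 bp in the other bins. Regions were placed by midpoint, so a wide one there can reach across the gene end, as in SLCO3A1 and ANXA2R.

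Gene lists were set beside the 2.01% of all protein-coding genes that were hosts and beside the number that genes of the same length classes would give. The lists were chosen with earlier results of these data known, so the counts carry no test. Of 30 B cell transcription factors, 14 were hosts (46.7%, 30.2 to 63.9), where the length classes give 1.44. They were ETS1, PRDM1, FOXP1, EBF1, TCF4, ELF1, POU2F1, IKZF1, IRF8, BCL6, ZEB2, FOXO1, ETV6 and POU2F2. The median of their best smaller fold was 3.70, beside 3.50 for all hosts, so these genes were often hosts but their regions were of usual strength. Where peaks had to overlap by 50% of each, 9 of the 30 were hosts beside 1.28% of all genes. With only peaks of −log10 q of at least 5, 6 of the 30 were hosts (20.0%) beside 0.711% of all genes. With the peaks of replicate 2 alone, 19 of the 30 were hosts (63.3%) beside 4.93% of all genes, and with those of replicate 1 alone also 19, beside 6.63%.

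ETS1, a factor of lymphocyte development, had folds of 4.51 and 4.88 at pileups of 20 and 20. PRDM1, the driver of plasma cell fate, had 4.25 and 5.40 in a region of 378 bp, with summits 9 bp apart. It lay 105 kb from the 5′ end of the gene as annotated and 12.2 kb from the nearest gene end. EBF1, a pioneer of the B lineage, had 3.95 and 5.12 at 46.9 kb, and IKZF1, the lymphoid factor Ikaros, 3.68 and 3.93 at 26.7 kb. ELF1 had 3.79 and 3.80, and POU2F1, an octamer factor, 3.73 and 4.69 with pileups of 54 and 42. IRF8 held 2 regions 9.82 and 11.3 kb into its 23.5 kb, with folds of 3.19 and 5.47 and of 5.13 and 3.55, so each replicate favoured another of the pair. BCL6 itself held 1 region 5.30 kb from its 5′ end, with 3.24 and 3.93.

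Of genes followed whatever their values, BACH2, PAX5, IKZF3, CIITA and KAT2B held no shared region in the body, and each had 2 or 3 regions there seen in 1 list only. BACH2, which holds back plasma cell fate, had 2 of replicate 2 only, with folds up to 5.21. PAX5, the B cell identity factor, had 2 of replicate 1 only and 1 of replicate 2 only. KAT2B, an acetyltransferase, had a shared region within 1 kb of an end instead. With 2 libraries, a missing peak shows only that the list holds none.

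The other lists gave smaller counts. In B cell receptor signalling 4 of 28 were hosts (14.3%, 5.70 to 31.5; length classes give 1.07). BLK, a Src-family kinase, had 3 regions, the best with 5.08 and 4.14. BANK1, an adaptor, had 3.84 and 4.01, VAV3 at best 3.70 and 3.56, and PIK3CD, the lymphoid phosphoinositide 3-kinase, 3.43 and 2.51. Cell cycle and checkpoint genes had 5 of 28 (17.9%, 7.88 to 35.6; 0.702). CDKN2A, which encodes the inhibitors p16 and p14ARF, was the strongest of these with 4.61 and 5.002 at pileups of 58 and 39, in a region that covers the start of LOC124902130 and lies within 1 kb of that of CDKN2B-AS1. CDK14 had 4.34 and 4.43, CDKN2C 3.33 and 3.31, and RAD51B 3.10 and 3.75.

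Among 30 apoptosis regulators 4 were hosts (13.3%, 5.31 to 29.7; 0.536). CASP10 held 2 regions 1.20 kb apart, with 10.1 and 6.97 and with 5.40 and 5.32. FOXO3, a factor that switches on death genes, had 4.56 and 4.46, and the BH3-only genes BMF and HRK 2.44 and 4.17, and 2.44 and 3.40. Of 30 co-repressors and lysine acetyltransferases 3 were hosts (10.0%, 3.46 to 25.6; 1.24). BCOR had 2 regions, of 6.87 and 3.17 and of 3.03 and 3.94, TBL1XR1 had 2.93 and 4.22, and KAT6B was among the 3 weakest of all. Of 27 exchange factors and GTPase activators of migration, ARHGAP15 (3.65 and 4.09) and ARHGEF3 (2.40 and 2.47) were hosts (7.41%), beside 1.44 from length. Of 30 NF-kB, CD40 and Toll-like receptor genes only TNFAIP8 was a host (3.33%, 0.591 to 16.7; 0.573). It held 3 regions of at best 3.60 and 3.77.

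Lists of other tissues were counted in the same way. Of 26 neuronal genes with long bodies, 3 were hosts (11.5%, 4.00 to 29.0), where their length classes give 2.26. DLG2, a synaptic scaffold, held the strongest of them with 5.003 and 6.88, in the narrowest region of all 511 (303 bp), at pileups of 63 and 62, and DMD had 4.01 and 3.15. Of 26 T cell and natural killer cell genes 3 were hosts (11.5%; 0.774), among them LCK (3.04 and 3.85) and PRKCQ (3.04 and 3.41). Of 26 hepatocyte genes 0 were, which allows up to 12.9%, where length gives 0.438. The share was highest for the B cell transcription factors. Their interval overlapped those of B cell receptor signalling (up to 31.5%) and cell cycle and checkpoint (up to 35.6%). Given how the lists were chosen, these intervals are no test between them. With only peaks of −log10 q of at least 5, B cell receptor signalling, the cell cycle and the neuronal genes had 2 hosts each, apoptosis had 1 (CASP10), and the other five lists had 0.

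**Figure D5:**
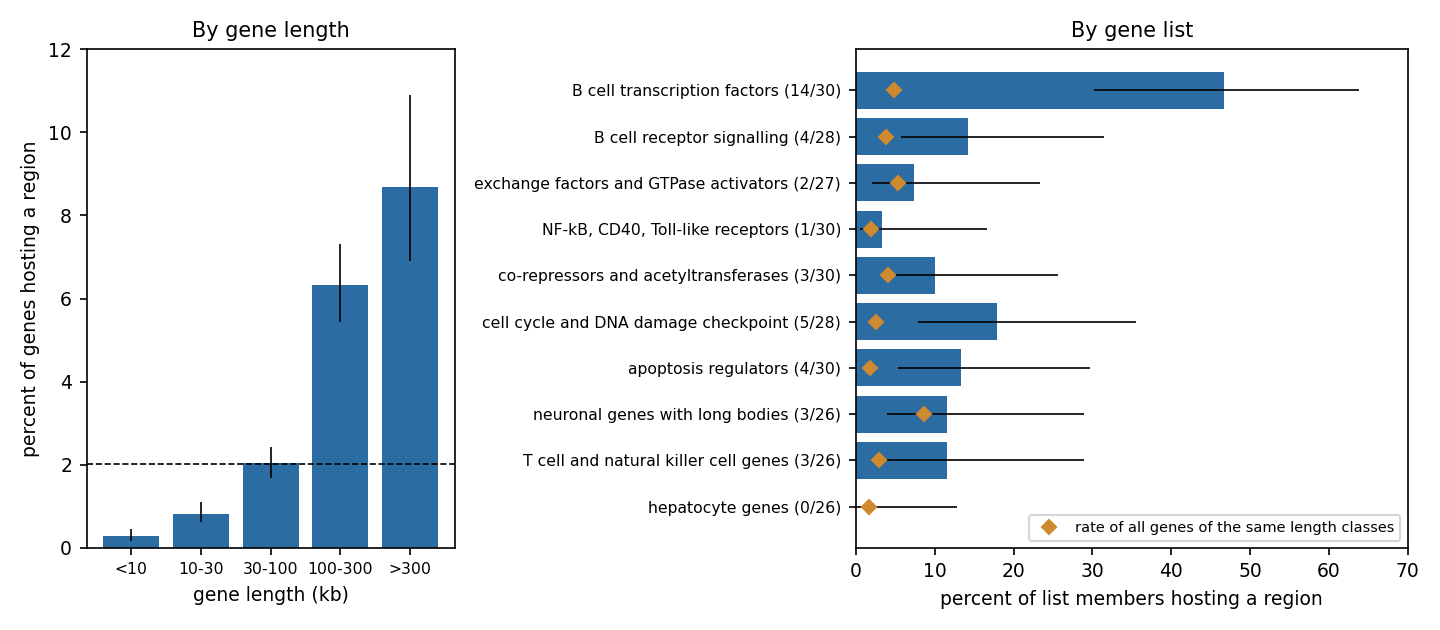
Left, percent of protein-coding genes that host a region (y axis) by class of gene length in kb, with the 2.01% of all genes as a dashed line; right, percent of the members of each gene list that host a region (x axis), with hosts and members in brackets; lines are Wilson 95% intervals and diamonds what all genes of the same length classes give. The share rises from 0.283% to 8.69% with length, and the bar of the B cell transcription factors (46.7%) stands farthest from its diamond.

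By chromosome, regions were densest on chromosome 12, with 45 regions or 7.37 per 10 Mb of gene body beside 4.19 over all, and sparsest on chromosome 20 (3 regions, 1.13) and X (8 regions, 1.63). On chromosome 12 the median smaller fold was 3.05, and local background was high, with medians of 9.83 and 7.77 fragments beside 6.88 and 5.19 in all 511, as were summit pileups (36 and 29 beside 28 and 23). NELL2, IRAG2, PCED1B, ETV6 and PLXNC1 lie there, and the part of this background in their calls was not tested. ETV6, a repressor of the ETS family, had 3.76 and 2.84 in its better region.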

How the data were processed

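CUT&RUN for BCL6 gave 1 deposited peak list per replicate (5237 and 3536 peaks). The submitters' processing notes name the build hg38 and, among other tools, Bowtie2 and MACS2. The sources used here give no versions or settings, nor the peak caller's control. The authors' fold enrichment is a ratio of the summit over its local background, and the deposited −log10 p and −log10 q are the caller's. The lowest deposited −log10 q was 1.31 in each list, a q of 0.05, and the deposited score repeats −log10 q and was not used.

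The whole-number summit pileup and its background were solved from the authors' fold and −log10 p under a Poisson model (tolerance 0.001 on the −log10 scale), and both were found for all 511 regions. Library totals are unknown. Poisson and Wilson 95% intervals cover counting error only, after 14 cycles of PCR.

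Genes and start windows came from RefSeq tables of GRCh38.p14, the assembly of hg38, with 19974 protein-coding genes. The strand was known for 15812 of them, those with a start window. The even spread used positions every 100 bp that lay more than 1 kb from every protein-coding end. Where genes overlapped, the longest host was used. Annotated starts were matched within 1 kb, and exons were not separated from introns. The planned motif search around summits needs a genome sequence, which was not used here, so motifs were sought in start windows instead.

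Named were the 15 strongest regions, genes with 3 or more regions, the 6 strongest with 2, the 5 widest, the 5 farthest from an end, 3 on each side of the 1 kb limit, the 3 weakest, up to 4 genes of each of 10 lists, and 8 genes whatever their values. Some genes under this rule are not reported here. Members and lists were chosen with earlier results of these data known. Alternatives were another overlap rule, a stricter q, the summit as the placing point, a margin of 5 kb, each replicate alone and the shortest host. Python 3.11.15, pandas 2.3.3, numpy 2.4.6, scipy 1.17.1 and matplotlib 3.10.9 were used, and the scripts were tested on simulated data.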

Additional observations from a re-analysis of the deposited data

How the results depend on the processing

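Over 8 results, of 56 alternative values 28 were labelled close to the reported value and 28 moved. The label was broad for counts. It took in 363 regions and 276 host genes with a margin of 5 kb, beside 511 and 402. It also took in 28 listed genes as hosts with a reciprocal overlap of at least 50%, beside 39. Medians were judged by the standard deviation between the replicate medians, and shares by the Wilson interval. With a reciprocal overlap of at least 50% there were 289 regions in 255 host genes, 29 of them with several, a median smaller fold of 3.52 and a width of 674 bp. With summits within 200 bp there were 326 regions and 34 genes with several. Where −log10 q had to reach 5 in each list there were 158 regions in 142 genes, 14 with several, a fold of 4.36, a width of 1133 bp, 13 listed genes as hosts and 32.8% within 5 kb of the 5′ end. With a margin of 5 kb from gene ends the central 50% of the host held 51.0%. Each replicate alone gave 1540 to 2355 regions, 985 to 1324 host genes, 273 to 455 with several, folds of 3.63 to 3.80, widths of 423.5 to 449 bp and 68 to 78 listed genes. The share within 5 kb of the 5′ end, whose alternatives were chosen after seeing the data, was 20.3% to 22.6% with each replicate alone. The cause of these shifts was not tested, beyond the fewer or more peaks each setting admits and the differing measures of a single list. No paired analysis was possible because values were analysed for 1 group only. With median pileups of 28 and 23, a gene without a region may hold one below the detection limit.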
